A study of Arvicanthis niloticus with 28 samples.

Results

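Pericytes are the mural cells that sit on retinal capillaries, and 10 genes that mark them or recruit them were described in the isolated retinal vasculature of 28 Nile rats (Arvicanthis niloticus). The genes are Pdgfb, Pdgfrb, Rgs5, Cspg4, Kcnj8, Abcc9, Anpep, Higd1b, Ndufa4l2 and Vtn. They were chosen as textbook pericyte genes, with earlier results of these data known. Of these, 9 were among the 18970 genes of the tables, and all 9 passed the filter on low counts. Ndufa4l2 was not analysed here. Pdgfb, the ligand, is made mainly by endothelial cells, and the other measured genes mark mural cells.

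The growth factor PDGF-B is released by capillary endothelium, is held near the vessel wall by heparan sulfate, and binds the receptor PDGFRβ on pericytes. This signal brings pericytes onto growing capillaries and keeps them there, and mice that lack ligand or receptor have capillaries with few pericytes. Loss of pericytes is a classical early lesion of diabetic retinopathy, and it goes with acellular capillaries, the empty basement membrane tubes that remain when vascular cells are gone.

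The study asked which transcripts of the retinal vessels go with the stage just before capillaries are lost. Vessels were freed from the retina by lysis in water, DNase and a water jet, and their RNA was sequenced with 1 library per rat. Acellular capillary density was counted per square millimeter on a trypsin digest of retina from each animal, and random blood glucose was recorded. The study kept its rats on a high-fiber or a high-caloric diet, but the labels give neither the diet nor the age of a rat, so these could not be entered in any comparison.

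The pre-dropout group held 4 rats with a density between 17 and 18, and all 4 were male. They are T353M (density 17.1, glucose 57.4 mg/dL), T389M (17.9, 443.4 mg/dL), T391M (17.6, 277.8 mg/dL) and T407M (17.8, 117 mg/dL). The normal group held 24 rats with a density below 16 (8 males and 16 females, observed range 5.90 to 14.5). Glucose was above 200 mg/dL in 2 pre-dropout rats and in 3 normal rats. All 28 rats carry the labels WT and no treatment. With no pre-dropout female, the groups could be compared within a sex only among males.

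Library totals ranged from 153111 to 10029207 counts, and 2 libraries, both of normal rats, held under 1e+06. The label of retinal vasculature was checked against marker lists. The summed level of 10 endothelial markers was 19370 to 53710 TPM (a level scaled to transcript length and library size) in pre-dropout rats and 11870 to 49520 TPM in normal rats. The 15 neural retina markers summed to 301.1 to 1032 TPM in pre-dropout rats and 257.5 to 5929 TPM in normal rats, so remnants of neural retina were present in every library. The 8 smooth muscle markers summed to 338.8 to 1101 TPM in pre-dropout rats and 244.3 to 1694 TPM in normal rats, and of these lists Tagln, a smooth muscle marker, was listed at 0 in 20 libraries. Single markers gave the same picture of vessels with some neural retina: Cldn5, an endothelial tight junction gene, was 16620 to 49970 TPM in pre-dropout rats and 9467 to 45280 TPM in normal rats, and Sag, which encodes the arrestin of photoreceptors, was 14.3 to 111 TPM in pre-dropout rats and 3.36 to 879.9 TPM in normal rats.

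The members spanned a wide range of levels, which only TPM allows to be set side by side. Rgs5, a regulator of G-protein signaling, averaged 7037 ± 3287 TPM (SD, n = 28), the 8th highest mean of all genes and 0.704% of the TPM of a library. Vtn, which encodes the matrix protein vitronectin, came next at 379 ± 191 TPM. Both steps at the top of the order held in every animal, with Rgs5 above Vtn and Vtn above Kcnj8 in 28 of 28 rats.

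Kcnj8 and Abcc9 encode the pore (Kir6.1) and the regulatory subunit (SUR2) of the ATP-sensitive potassium channel of mural cells, and they stood at nearly the same level. Kcnj8 averaged 142.9 ± 69.7 TPM and Abcc9 140.3 ± 64.6 TPM (SD, n = 28), with Kcnj8 the higher in 16 of 28 rats. These neighbours in the order do not differ beyond their spread. In the RefSeq annotation of the Nile rat (mArvNil1.pat.X) the genes lie beside each other on the same chromosome with no protein-coding gene between them and do not overlap.

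The receptor gene Pdgfrb averaged 110.5 ± 56.4 TPM (SD, n = 28) and was below Abcc9 in 24 of 28 rats. Its ligand gene Pdgfb averaged 61.9 ± 32.7 TPM and was below Pdgfrb in 23 of 28 rats. The surface proteins CD13 (Anpep) and NG2 (Cspg4) were encoded at lower levels, with means of 31.8 ± 23.2 TPM for Anpep and 28.1 ± 24.1 TPM for Cspg4, and these 2 genes changed places between rats, with Anpep the higher in 16 of 28.

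Relative to their means, 6 of the 9 members varied less between rats than the median gene. The coefficient of variation of TPM over the 28 rats was 0.461 for Abcc9, 0.467 for Rgs5, 0.488 for Kcnj8, 0.504 for Vtn, 0.510 for Pdgfrb and 0.529 for Pdgfb. It was 0.730 for Anpep and 0.855 for Cspg4. The median was 0.697 over the 8815 genes with a mean of at least 10 TPM and 0.890 over all 13800 genes tested. Anpep and Cspg4 were between these medians and Higd1b, at 2.41, was above both.

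**Figure D1:**
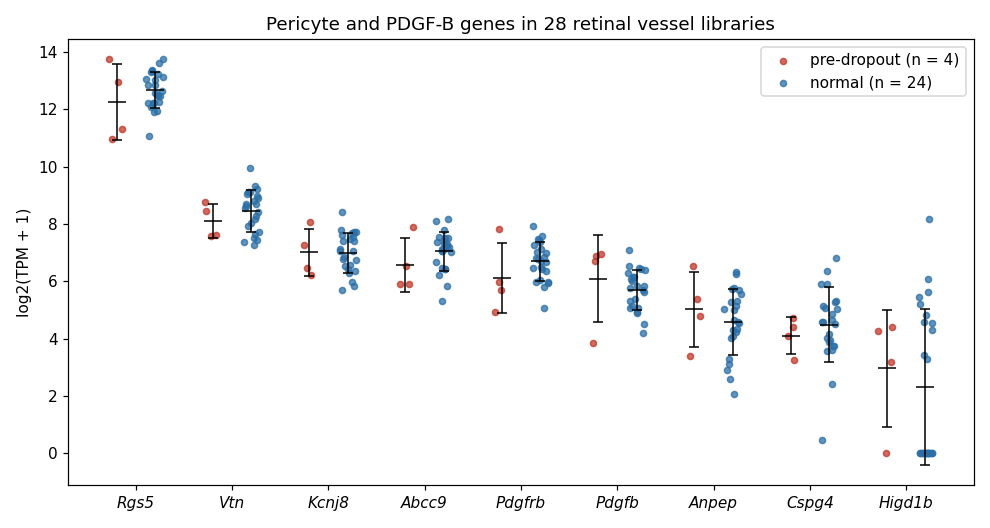
Level of the 9 measured genes in each library, as log2(TPM + 1), in 4 pre-dropout rats (red) and 24 normal rats (blue). Bars are the mean and SD of each group on that scale. The groups overlap for every gene, and Higd1b is split between libraries at 0 and libraries with a count.

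The first comparison set pre-dropout rats against normal rats. None of the 9 genes was called at an adjusted p under 0.05 with more than a 2-fold change in edgeR's quasi-likelihood test, against 0% of all 13800 genes. At an unadjusted p under 0.05 the count of members was also 0, against 0.196% of genes higher and 2.66% lower in pre-dropout rats. DESeq2 and limma-voom called 5 and 4 genes of all those tested, and none of them was a member. In bulk vessel RNA, fewer pericytes and less RNA per pericyte cannot be told apart, and this holds for each value that follows.

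Pdgfb was 116.5 TPM in T353M, 124.1 TPM in T389M, 103.6 TPM in T391M and 13.5 TPM in T407M, against a lowest, median and highest level of 17.3, 55.0 and 135.7 TPM in normal rats. Of the 4 pre-dropout rats, 3 were near the top of the normal range and 1 was below all normal rats. The log2 fold change was 0.64 (SE 0.448, 95% interval -0.27 to 1.54, edgeR adjusted p = 0.9999). Leaving out T407M brought it to 1.03, and leaving out T389M to 0.38, each with an edgeR adjusted p of 1.

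Pdgfrb was 228.9 TPM in T353M, 62.8 TPM in T389M, 51.4 TPM in T391M and 29.7 TPM in T407M, against 32.9, 107.3 and 242.4 TPM (lowest, median, highest) in normal rats. T353M was close to the highest normal rat, and the other 3 were below the normal median. The log2 fold change was -0.41 (SE 0.412, 95% interval -1.25 to 0.42, edgeR adjusted p = 0.9999), and with 1 rat left out it lay between -1.15 (without T353M) and -0.15 (without T407M), each with an edgeR adjusted p of 1.

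Receptor and ligand therefore took different orders in different rats, and their ratio was compared within each library. The log2 ratio of Pdgfrb to Pdgfb, on TPM + 1, was 0.97 in T353M, -0.97 in T389M, -0.997 in T391M and 1.08 in T407M, against -1.05 to 2.85 with a median of 1.03 in normal rats. It was below 0 in 2 of 4 pre-dropout rats and above 0 in 21 of 24 normal rats. The group means were 0.02 ± 1.16 in pre-dropout rats and 0.99 ± 0.87 in normal rats (SD). The difference of -0.97 did not pass 0.05 in an exact two-sided permutation test over all 20475 splits (p = 0.0586). The test turned on single rats: the difference was -1.28 (exact p = 0.0332) without T353M and -1.32 (exact p = 0.0267) without T407M, but -0.64 (exact p = 0.271) without T389M and -0.63 (exact p = 0.275) without T391M. It was -1.09 (exact p = 0.0274) in libraries of at least 1e+06 counts and -1.24 (exact p = 0.127) among males alone.

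Rgs5 was 13790 TPM in T353M, 2019 TPM in T389M, 2574 TPM in T391M and 8029 TPM in T407M, against 2136, 6217 and 13730 TPM (lowest, median, highest) in normal rats. The pre-dropout group thus held both the highest and the lowest level of the 28 rats. The log2 fold change was -0.16 (SE 0.382, 95% interval -0.93 to 0.61, edgeR adjusted p = 0.9999), and it turned positive without T389M (0.12) or without T391M (0.11).

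The potassium channel genes were likewise highest in T353M and next highest in T407M. Kcnj8 was 268.2 TPM in T353M, 88.3 TPM in T389M, 74.0 TPM in T391M and 152.6 TPM in T407M, against 50.9, 133.0 and 341.5 TPM (lowest, median, highest) in normal rats. Abcc9 was 240.1 TPM in T353M, 58.7 TPM in T389M, 59.5 TPM in T391M and 91.3 TPM in T407M, against 38.9, 142.9 and 289.1 TPM in normal rats. For both genes T353M was high, T389M and T391M were low and T407M was between them. The log2 fold changes were -0.03 (SE 0.423) for Kcnj8 and -0.44 (SE 0.389) for Abcc9, each with an edgeR adjusted p of 0.9999, and that of Kcnj8 changed sign under several other scalings and tools. With 1 rat left out, Abcc9 lay between -0.92 (without T353M) and -0.23 (without T391M).

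Vtn was 439.2 TPM in T353M, 197.0 TPM in T389M, 192.9 TPM in T391M and 347.2 TPM in T407M, against 152.5, 383.7 and 1004 TPM (lowest, median, highest) in normal rats. Anpep was 92.4 TPM in T353M, 26.6 TPM in T389M, 9.5 TPM in T391M and 40.9 TPM in T407M, against 3.20, 23.5 and 78.8 TPM in normal rats. Cspg4 was 25.5 TPM in T353M, 15.9 TPM in T389M, 8.5 TPM in T391M and 20.03 TPM in T407M, against 0.385, 22.8 and 110.9 TPM in normal rats. In all 3 genes T353M was again the highest of the 4 pre-dropout rats and T391M the lowest. The log2 fold changes were -0.42 (SE 0.405) for Vtn, 0.42 (SE 0.577) for Anpep and -0.79 (SE 0.732) for Cspg4, each with an edgeR adjusted p of 0.9999, and without T353M the value of Anpep was -0.10.

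Of the 9 fold changes, 7 were below 0, where 58.9% of all genes were, and 2 above 0, where 41.1% were, and their median was -0.41 on the log2 scale beside -0.13 over all genes. These genes move together between rats, as described further on, so their counts are not independent. Beside them, the neural markers were also lower, with 14 of 15 below 0 and a median of -0.80, and the endothelial markers were higher, with 9 of 10 above 0 and a median of 0.19. Whether the makeup of the libraries had a part in the members' values was not tested in this comparison. A fit with the neural level as a covariate called no member. None was called without that covariate either, so the lack of a call cannot tell.

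The genes around the PDGF-B signal gave no call in edgeR either. Of 7 further PDGF ligands and receptors, 2 were above and 5 below 0 in pre-dropout against normal rats, beside 41.1% and 58.9% of all genes. Lrp1, a coreceptor that binds PDGFRβ, had the smallest p of them and averaged 9.99 ± 2.98 TPM in 4 pre-dropout rats and 19.9 ± 10.7 TPM in 24 normal rats (SD), a log2 fold change of -0.94 (SE 0.375, edgeR unadjusted p = 0.0166, adjusted p = 0.9999). Pdgfrl, a receptor-like gene, came next at 0.117 ± 0.233 TPM in pre-dropout rats and 4.75 ± 7.85 TPM in normal rats, with libraries at 0 in both groups. The most abundant were Nrp1, a coreceptor of VEGF that also binds PDGFs, at 103.8 ± 27.7 TPM in pre-dropout rats and 94.6 ± 59.1 TPM in normal rats, and the ligand Pdgfd at 81.6 ± 24.3 TPM in pre-dropout rats and 70 ± 33.7 TPM in normal rats.

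Of 19 genes that retain PDGF-B at the vessel or carry the receptor's signal, 10 were above and 9 below 0, beside 41.1% and 58.9% of all genes. Hspg2, which encodes the heparan sulfate proteoglycan perlecan of the basement membrane, was 47.0 ± 10.6 TPM in pre-dropout rats and 30.7 ± 12.2 TPM in normal rats (SD), with a log2 fold change of 0.62 (SE 0.322, edgeR adjusted p = 0.9999). Pik3r1, a regulatory subunit of PI3-kinase, was 7.97 ± 3.25 TPM in pre-dropout rats and 14.03 ± 9.97 TPM in normal rats. The adaptor Nck1 and the kinase subunit Pik3ca had the highest levels of this list, at 115.6 ± 42.4 and 79.5 ± 15.6 TPM in pre-dropout rats and 102.5 ± 63.4 and 71.7 ± 24.8 TPM in normal rats.

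Of 16 other pericyte genes, 5 were above and 11 below 0, beside 41.1% and 58.9% of all genes. Art3 was 40.04 ± 37.5 TPM in pre-dropout rats and 9.95 ± 20.9 TPM in normal rats (SD) and was at 0 in libraries of both groups. The transcription factor gene Foxc1 (546.2 ± 129.7 TPM in pre-dropout rats, 481 ± 284 TPM in normal rats) and Aspn (203 ± 191 TPM in pre-dropout rats, 236 ± 132 TPM in normal rats) were the most abundant of this list.

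Of 17 genes by which pericytes and endothelium signal to each other, 8 were above and 9 below 0, beside 41.1% and 58.9% of all genes. The integrin gene Itgb5 was 380.8 ± 104.8 TPM in pre-dropout rats and 551.6 ± 221.2 TPM in normal rats (SD), and Hbegf, an EGF family ligand, was 2.73 ± 3.61 TPM in pre-dropout rats and 12.9 ± 15.8 TPM in normal rats. N-cadherin (Cdh2), which joins pericytes to endothelium, and the sphingosine-1-phosphate receptor gene S1pr1 were abundant, at 1063 ± 104 and 741 ± 249 TPM in pre-dropout rats and 1297 ± 555 and 727 ± 297 TPM in normal rats.

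The second comparison followed acellular capillary density as a continuous measure over all 28 rats, with sex in the fit. No member was called by edgeR, against 0% of 13406 genes, and at an unadjusted p under 0.05 the count of members was 0, against 1.72% of genes rising and 0.768% falling with density. DESeq2 called 1 gene, which was not a member, and limma-voom called none. All 9 slopes were below 0, where 44.4% of all genes were, against 55.6% above 0, and their median was -0.32 on the log2 scale per 5 acellular capillaries per square millimeter beside 0.05 over all genes.

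Vtn had the smallest p of the members on density, with a slope of -0.39 (SE 0.212, 95% interval -0.82 to 0.04, unadjusted edgeR p = 0.0720). Pdgfrb followed at -0.40 (SE 0.227, unadjusted edgeR p = 0.0852). Abcc9 (-0.32, SE 0.207), Kcnj8 (-0.30, SE 0.218) and Rgs5 (-0.23, SE 0.2015) were on the same side. Cspg4 (-0.38, SE 0.388), Anpep (-0.16, SE 0.309) and Pdgfb (-0.09, SE 0.243) were below 0 by less than their errors. Each of these had an edgeR adjusted p of 0.9999. The neural markers ran the other way, with 13 of 15 slopes above 0 and a median of 0.38. Adding their level to the fit was an alternative chosen after seeing the data. In it the slopes of Anpep, Cspg4 and Pdgfb were 0.09, 9.12e-05 and 0.07. Those of Vtn, Pdgfrb, Abcc9, Kcnj8, Rgs5 and Higd1b stayed below 0, as in all 11 alternative settings, but their size varied. Over these settings Vtn lay between -0.475 and -0.147, Pdgfrb between -0.517 and -0.2, and Abcc9 between -0.427 and -0.117. Kcnj8 lay between -0.374 and -0.115, Rgs5 between -0.375 and -0.0528, and Higd1b between -1.81 and -0.473.

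**Figure D2:**
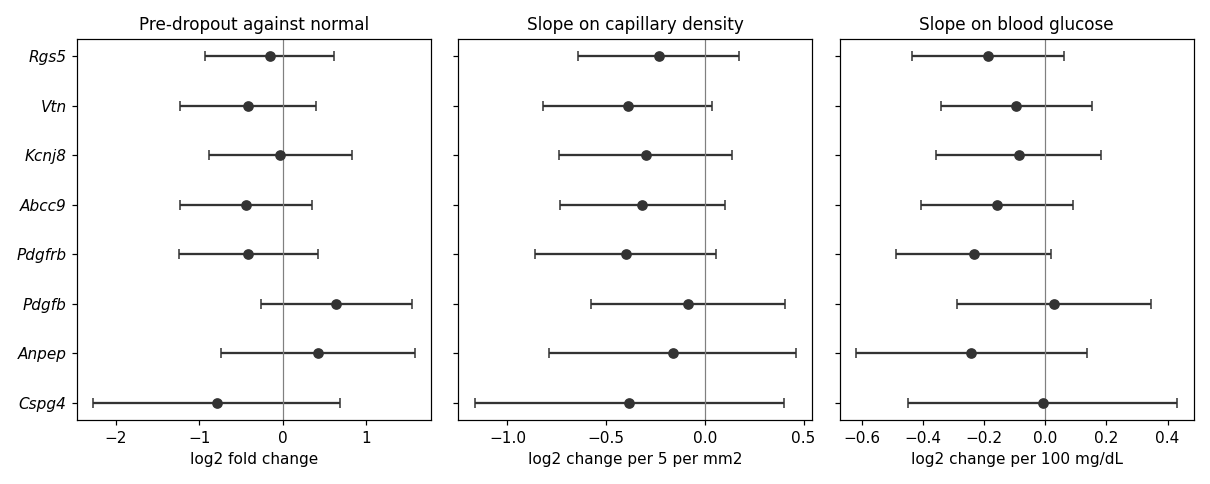
Estimates of edgeR for 8 members (points) with 95% intervals (bars) as log2 fold change of pre-dropout against normal rats, slope per 5 acellular capillaries per square millimeter, and slope per 100 mg/dL of glucose. Higd1b is left out for its zeros. Every interval crosses 0.

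The third comparison followed random blood glucose, again with sex in the fit. No member was called by edgeR, against 0% of 13800 genes, and at an unadjusted p under 0.05 the count of members was 0, against 2.27% of genes rising and 1.54% falling with glucose. DESeq2 called 21 genes, none of them a member, and limma-voom called none. Of the 9 slopes, 8 were below 0, where 47.6% of all genes were, and 1 above 0, where 52.4% were, with a median of -0.16 per 100 mg/dL on the log2 scale beside 0.01 over all genes. Pdgfrb had a slope of -0.23 (SE 0.126, 95% interval -0.49 to 0.02, unadjusted edgeR p = 0.0701, adjusted p = 1), and Rgs5 one of -0.19 (SE 0.123, adjusted p = 1). With 1 of the rats above 200 mg/dL left out, the slope of Rgs5 lay between -0.35 (without T392F) and -0.11 (without T389M), and that of Kcnj8, -0.09 over all rats, between -0.27 and -0.05 without the same rats.

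Only 5 rats were above 200 mg/dL, so the slopes rest on few animals. Rgs5 was 2019 TPM in T389M (443.4 mg/dL), 5838 TPM in T446M (422.4 mg/dL), 8406 TPM in T392F (361.5 mg/dL), 2574 TPM in T391M (277.8 mg/dL) and 4785 TPM in T370M (225.7 mg/dL). Kcnj8 was 88.3 TPM in T389M, 115.3 TPM in T446M, 204.5 TPM in T392F, 74.0 TPM in T391M and 62.6 TPM in T370M. In both genes the only female of the 5 had the highest level, and for Rgs5 the 2 pre-dropout rats had the lowest levels.

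Among females alone the slope of Kcnj8 was 0.44 (SE 0.238) and that of Rgs5 0.18 (SE 0.249), with edgeR adjusted p of 0.546 and 0.853. A test of the difference between the sexes, chosen after seeing the data, gave a male minus female slope of -0.77 (SE 0.286) for Kcnj8 and -0.55 (SE 0.244) for Rgs5, with edgeR adjusted p of 0.299 and 0.356 over 15051 genes, of which 1 was called. T392F is the only female above 200 mg/dL. The neural markers had 14 of 15 slopes above 0 on glucose, with a median of 0.27, and their part in the members' values was not tested. The fit with their level as a further covariate called no member. None was called without it either, so the lack of a call cannot tell.

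**Figure D3:**
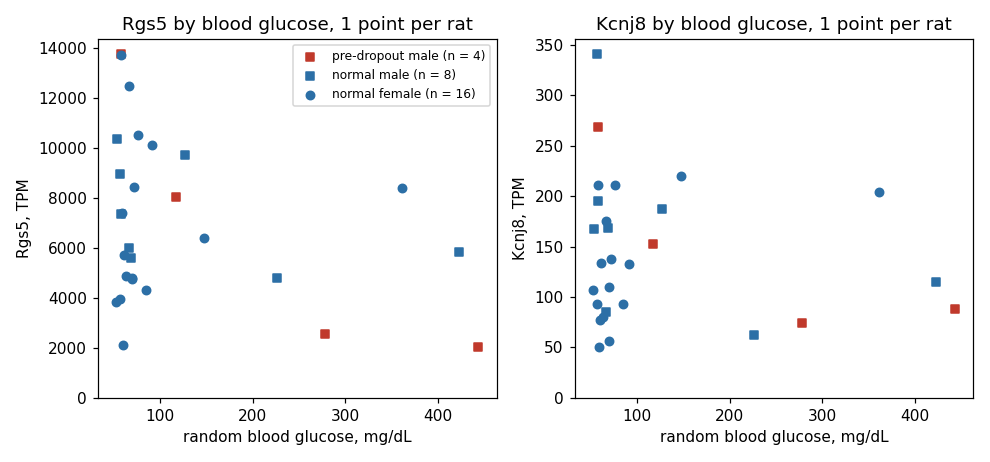
TPM of Rgs5 (left) and Kcnj8 (right) by the glucose of each rat (mg/dL, random sampling), with pre-dropout males as red squares, normal males as blue squares and normal females as blue circles. Of the 5 rats above 200 mg/dL, T392F is the only female and has the highest level of both genes.

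The members varied together between rats. Correlations were taken over the 28 rats on log2 CPM for the 28 pairs of 8 members, without Higd1b, and permutation p-values were adjusted over the 28 pairs. All 21 pairs among the 7 mural genes passed an adjusted p of 0.05, with Pearson's r between 0.462 and 0.872 and a median of 0.665. None of the 7 pairs of Pdgfb with a mural gene did, with r between -0.01 and 0.28 and a median of 0.171, which lay between 0.0459 (without T419F) and 0.25 (without T391M) with 1 rat left out. The median r of a mural gene with all other genes tested was between -0.25 for Vtn and -0.12 for Cspg4, and that of Pdgfb was -0.11.

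Rgs5 and Abcc9 formed the closest pair, with r = 0.872 and Spearman's rho = 0.853 (permutation p = 1e-05 for each, the smallest that 100000 resamples can give, adjusted p = 5.6e-05). Without the 2 rats farthest from the median of Rgs5, r was 0.832. Pdgfrb and Abcc9 followed with r = 0.833 and rho = 0.884 (permutation p = 1e-05, adjusted p = 5.6e-05 for each), and r was 0.825 without the 2 farthest rats. Receptor and channel subunit thus kept nearly the same order of rats.

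Kcnj8 was closest to Anpep among the members (r = 0.762, rho = 0.780, permutation p = 1e-05, adjusted p = 5.6e-05 for each, r = 0.787 without the 2 farthest rats). With its channel partner Abcc9 it had r = 0.718 (rho = 0.743, permutation p = 2e-05 for each, adjusted p = 9.33e-05 for r and 6.22e-05 for rho), and 0.805 without the 2 farthest rats. Vtn was closest to Rgs5 (r = 0.768, rho = 0.752, permutation adjusted p = 5.6e-05 and 6.22e-05, r = 0.761 without the 2 farthest rats). Cspg4 had the loosest ties, and its r with the other mural genes was lowest with Pdgfrb (r = 0.462, rho = 0.555, permutation adjusted p = 0.0154 and 0.00375), where leaving out the 2 farthest rats gave r = 0.381 (permutation p = 0.0511).

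**Figure D4:**
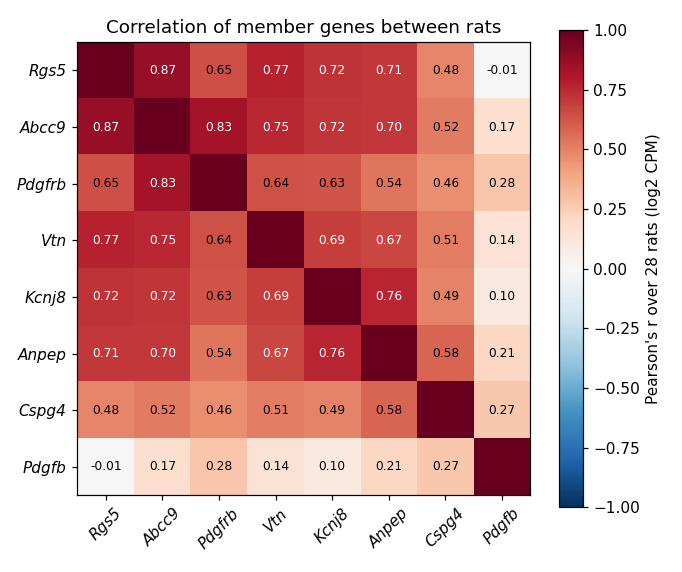
Pearson's r over 28 rats between log2 CPM of 8 members, with red for positive and blue for negative values. The 7 mural genes form a block of r from 0.46 to 0.87, and the row of Pdgfb is pale, from -0.01 to 0.28.

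In single animals the 7 mural genes were often, but not always, on the same side of their medians. All 7 were above their medians in 6 rats (T353M, T408F, T411M, T420F, T424M and T430F) and all 7 below in 7 rats (T370M, T391M, T393F, T398F, T401F, T404F and T419F). Of the other 15 rats, 5 had 6 genes on one side, and 10 had at least 2 genes on each side. Pre-dropout rats were on both sides, with T353M among the high and T391M among the low. T389M had 6 of 7 genes below their medians, and T407M was mixed. Both sexes were on both sides as well.

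Over all 28 rats Pdgfb, the endothelial ligand, did not follow this block. With its receptor gene Pdgfrb it had r = 0.28 (rho = 0.223, permutation p = 0.148 and 0.251, adjusted p = 0.189 and 0.306), and 0.134 without the 2 farthest rats. With Rgs5 it had r = -0.01 (rho = 0.0947, permutation p = 0.969 and 0.630, r = -0.01 without the 2 farthest rats). The rats T389M and T391M had high Pdgfb with low Rgs5, and T407M had the lowest Pdgfb of all 28 rats with Rgs5 above the normal median.

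Within the sexes the ties of Pdgfb differed in value. The median r of its 7 pairs was -0.25 over 12 males and 0.567 over 16 females, and over the 24 normal rats it was 0.325. Its r with Pdgfrb was 0.567 in females (permutation p = 0.0225, before adjustment), and whether the sexes differ in it was not tested. The mural pairs had medians of 0.597 in males, 0.693 in females and 0.710 in normal rats.

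**Figure D5:**
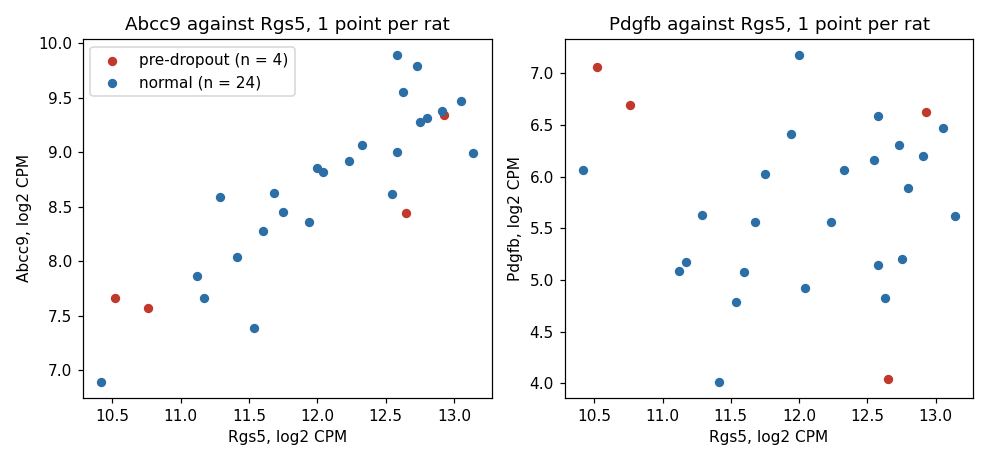
Log2 CPM of Abcc9 (left) and Pdgfb (right) against log2 CPM of Rgs5, 1 point per rat, pre-dropout rats in red and normal rats in blue. Over all 28 rats Abcc9 follows Rgs5 (r = 0.872) and Pdgfb does not (r = -0.01).

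The makeup of the libraries moved with the same genes. Over the 28 rats and 40 relations of 8 members with 5 library properties, the mean level of the endothelial markers had an r between 0.434 (Pdgfb, permutation adjusted p = 0.058) and 0.654 (Vtn, adjusted p = 0.0024), and passed 0.05 for the 7 mural genes. By Spearman's rho Pdgfb passed as well (rho = 0.517, permutation adjusted p = 0.0153). The mean level of the neural markers had an r between -0.71 (Vtn, permutation adjusted p = 0.0012) and -0.40 (Pdgfb, adjusted p = 0.0949), and passed for 6 of 8 members, with Cspg4 at 0.0545. By Spearman's rho Cspg4 also passed (rho = -0.50, permutation adjusted p = 0.0223) and Pdgfb did not (0.0505). For Vtn, rho was 0.592 with the endothelial and -0.70 with the neural markers, and r without the 2 farthest rats was 0.580 and -0.65 (permutation p = 0.00209 and 0.00045). Levels of smooth muscle markers, fibroblast markers and the library total passed for no member. The smooth muscle level is a mean over 8 genes that includes Tagln, listed at 0 in 20 libraries. Des, another gene of that mean, had r = 0.897 with Rgs5 and 0.802 with Abcc9, so the mean does not stand for each gene in it.

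The 21 mural pairs kept a positive but lower median r when some of these properties were taken out in separate fits. Smooth muscle and fibroblast levels were not fitted, and the properties were not all taken out together. Before any fit the median r of the 21 mural pairs was 0.665 and the lowest 0.462. After a fit on the neural level and the library total, the median was 0.513 and the lowest 0.255. After a fit on the endothelial level, chosen after seeing the data, the median was 0.472 and the lowest 0.158, while Rgs5 with Abcc9 had r = 0.815 (permutation p = 1e-05, the smallest possible) and Pdgfrb with Abcc9 r = 0.751 (permutation p = 2e-05). The median of the Pdgfb pairs was -0.09 after either fit.

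The genes most alike to each member over the 28 rats were named by Pearson's r among 13799 genes, as a description with no p. For Rgs5 they were Des (desmin, r = 0.897), Abcc9, Myl9 (a myosin light chain, 0.868), Rgs4 (0.842) and Igfbp7 (0.825). For Abcc9 they were Notch3 (a receptor of mural cells, 0.877), Rgs5, Flna (filamin A, 0.868), Pdgfrb and Des (0.802). For Pdgfrb they were Abcc9, Mtpn (0.797), Flna (0.785), 9930111J21Rik1 (0.784) and Ano1 (a chloride channel, 0.776). Des was among the 5 for Rgs5 and Abcc9, and Flna among the 5 for Abcc9 and Pdgfrb.

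For Kcnj8 the most alike genes were Igfbp7 (0.783), Leprot (0.764), Gja4 (connexin 37, 0.762), Anpep and Eng (endoglin, 0.760). For Anpep they were Axl (a receptor tyrosine kinase, 0.794), Rgs4 (0.776), Sacm1l (0.774), Pde5a (0.769) and Kcnj8. For Vtn they included Efhd2 (0.869), Igfbp7 (0.860), Fth1 (ferritin heavy chain, 0.833) and Flna (0.823). Igfbp7 was among the 5 for Rgs5, Kcnj8 and Vtn.

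For Cspg4 the most alike genes were Cnot6l (0.839), Dsel (0.805), Cnot8 (0.795), Ltbr (0.789) and Fam172a (0.776), and none was a member. For Pdgfb they were Sgpp2 (0.687), Efr3b (0.667), Dennd3 (0.662), Agfg1 (0.654) and Dnaja1 (0.636). The share of all genes with r above 0.5 was smallest for Pdgfb, at 0.572%, and highest for Vtn, at 4.01%. Pdgfrb stood at rank 800 of 13799 in likeness to Pdgfb, while Pdgfb stood at rank 1236 in likeness to Pdgfrb.

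Higd1b, a mitochondrial protein gene used as a marker of brain and lung pericytes in mice, behaved unlike the other members. It was listed at 0 in 14 of 28 libraries, 1 pre-dropout and 13 normal, and had a count in 3 pre-dropout and 11 normal libraries. Its level was 8.14 TPM in T353M, 18.4 TPM in T389M, 20.03 TPM in T391M and 0 in T407M. In the normal libraries with a count it was between 8.92 TPM and 291.9 TPM, the highest in T448M, 1 of the 2 libraries under 1e+06 counts.

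Libraries at 0 were found at both ends of the depth range. The shallowest library of all was at 0, as was the deepest. Totals of the libraries at 0 had a median of 4952182 counts, against 3643692 counts in the libraries with a Higd1b count. Genes that cells generally use were also listed at 0 in some libraries, Psmg2 in 8 and Hadhb in 11, so a listed 0 is not read as absence of the transcript. For this reason no single correlation of Higd1b over all 28 rats is given, and its pairs enter only 1 median in the closing section. Over the 14 rats with a count its r with the other 8 members was between -0.23 and 0.455, and none passed a permutation adjusted p of 0.05 over these 8 relations (lowest 0.491 for r and 0.293 for rho). These values rested on few rats: without the 2 rats farthest from the median of Higd1b, r was 0.712 with Anpep, 0.675 with Kcnj8 and 0.657 with Rgs5 (permutation p = 0.00974, 0.0169 and 0.0219, before adjustment), against 0.359, 0.408 and 0.280 over the 14. The log2 fold change of Higd1b was -1.15 (SE 1.82, edgeR adjusted p = 0.9999), and without T448M, its highest library, it was -0.19. It was above 0 under some other tools and scales.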

How the data were processed

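RNA of isolated retinal vessels from 28 Nile rats was measured, 1 library per rat. Expected counts and TPM per gene were deposited by the authors with mouse symbols and mouse Ensembl identifiers; they were taken as values of the authors' comparative pipeline (CRSP), which uses mouse transcripts, while the build is not given in the sources used here, so no coordinates are printed. The effect of mouse transcripts on each gene's count was not tested. Members and lists were chosen with earlier results of these data known. Groups follow the density label and the study's limits. 

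Rounded counts entered edgeR's quasi-likelihood test (version 4.0.16, R 4.3.3), scaled by TMM, after filterByExpr with a minimum count of 10, and p-values were adjusted by Benjamini-Hochberg over all genes kept. Calls needed an adjusted p below 0.05 and, between groups, more than 2-fold change. The study's own tool, EBSeq, was not run. Alternatives were DESeq2 1.42.0, limma 3.58.1 (voom with sample weights, and log2 of TPM plus 1 or 0.1), other scalings, filters, covariates and subsets of rats. The test was checked only on simulated counts with large changes and a far smaller spread between rats than these data have. That check cannot tell how often the test misses or miscalls genes at the spread of these data. Correlations used log2 CPM with a prior count of 2 and two-sided permutation tests of 100000 resamples (SciPy 1.17.1, NumPy 2.4.6). The design foresaw pairs of all 10 genes; Higd1b and Ndufa4l2 were left out of them, which left 28 pairs. Named genes are the members, the 5 most alike to each, and in each list the 2 of smallest p and the 2 of highest mean TPM, and 9 cell type markers; a few of these are not reported here. Totals per library lay between 153111 and 10029207 counts.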

Additional observations from a re-analysis of the deposited data

Results flagged for a closer look

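Among the 4 pre-dropout rats, the Pdgfrb level of T353M (228.9 TPM) stood apart from the other 3 (62.8, 51.4 and 29.7 TPM). Its gap to the nearest of them was 0.834 of the whole range of the group, above the critical value of Dixon's test for 4 samples (0.829). Chance flags about 1 group in 20, and 10 items were tested.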

How the results depend on the processing

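No paired analysis was possible because the labels give the groups no shared replicate numbers. No member was called in any of the 70 settings run over the 3 comparisons, and the lowest adjusted p of a member was 0.361 (Pdgfb, pre-dropout against normal, limma-voom). With 4 pre-dropout rats, small changes are not detectable. The common biological coefficient of variation over all genes kept was 1.32. The standard errors of the members' log2 fold changes between the groups were from 0.382 (Rgs5) to 1.82 (Higd1b). Of single-gene values, 35 of 435 changed sign under other settings and 11 of 521 with 1 rat left out, and the cause was not tested. The fits with both neural level and sex, the single rats left out for glucose, the sex by glucose fit, the endothelial residuals and the pairs with Higd1b were chosen after seeing the data.

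For all genes, the calls in pre-dropout against normal rats were 72 with no filter, 5 by DESeq2 and 4 by limma-voom. On density they were 121 with no filter and 1 by DESeq2. On glucose they were 152 with no filter, 21 by DESeq2, 2 in normal rats, 1 in females and 2 with neural level and sex.

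In pre-dropout against normal rats, Kcnj8 was 0.0113 with upper-quartile factors, 0.115 by limma-voom, 0.0048 on TPM + 1 and 0.00483 on TPM + 0.1. Higd1b was 1.53 by limma-voom, 0.647 on TPM + 1, 1.57 on TPM + 0.1 and 0.102 with sex and glucose. Anpep was -0.0316 in males. With 1 rat left out, Anpep ranged from -0.102 to 0.733, Rgs5 from -0.604 to 0.123, Kcnj8 from -0.336 to 0.182, Pdgfrb from -1.15 to -0.146, Abcc9 from -0.924 to -0.234 and Higd1b from -1.47 to -0.192.

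On density, Pdgfb was 0.186 by limma-voom, 0.0304 with no covariate, 0.0959 in males, 0.0603 in libraries of at least 1e+06 counts and 0.0716 with neural level and sex. Anpep was 0.063 with no covariate and 0.0926 with neural level and sex, where Cspg4 was 9.12e-05.

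On glucose, Cspg4 was 0.0125 with DESeq2 size factors, 0.012 by DESeq2, 0.0112 by limma-voom, 0.0609 on TPM + 1, 0.0671 with sex and density, 0.0814 in normal rats, 0.423 in females and 0.196 with neural level and sex. Pdgfb was -0.0169 on TPM + 1, -0.29 in normal rats and -0.179 in females. Kcnj8 was 0.0263 in normal rats and 0.437 in females. In females Pdgfrb was 0.0433, Rgs5 0.183, Abcc9 0.137 and Vtn 0.143, and with neural level and sex Vtn was 0.0262. With 1 rat left out, Cspg4 ranged from -0.221 to 0.0148, Pdgfb from -0.185 to 0.118, Rgs5 from -0.354 to -0.109 and Kcnj8 from -0.27 to -0.0456.

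The median correlation of the pairs, 0.604, was 0.45 after neural level and library total and 0.381 after the endothelial level. It was 0.502 over 36 pairs with Higd1b, taken over all 28 rats with its zeros included. The correlation of Pdgfb with Rgs5 was 0.294 in normal rats and 0.431 in females. The difference in the log2 ratio of Pdgfrb to Pdgfb, -0.97, was -1.09 in libraries of at least 1e+06 counts (exact permutation p = 0.0274), and ranged from -1.32 to -0.63 with 1 pre-dropout rat left out.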
